A study of Saccharomyces cerevisiae with 4 samples.

Results

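The large ribosomal subunit (60S) of budding yeast is built from ribosomal proteins and rRNA with the help of many assembly factors that act in turn and then leave. The 53 genes of such factors described here were taken from a list given by name, and all 53 were found by symbol among the 6218 open reading frames (ORFs) on the arrays. They were divided by the step at which their products mainly act into 37 early nucleolar factors, 11 late nucleolar and nucleoplasmic factors and 5 factors of nuclear export and cytoplasmic maturation. The list's rule names genes and uses no measured value, though it was drawn up with earlier results of these data known.

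Cells transcribe the precursor of the large rRNAs in the nucleolus, where helicases, methyltransferases and RNA-binding proteins fold and trim it. GTPases and an AAA ATPase then remodel the particle in the nucleoplasm, and export factors carry it through the nuclear pore to the cytoplasm, where the last factors are released and recycled. In growing yeast the genes of these factors, together with those of small-subunit processing, are known to respond as one regulon to nutrients.

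All sample cells were SK1 diploids (strain GF18) with NDT80, the gene of the activator of middle sporulation genes, under the promoter of SPS4, itself a middle sporulation gene, so that every array including the one before transfer carries this allele (pSPS4-3HA-NDT80 by the study's methods). One culture was starved for 5.5 h in acetate sporulation medium (SPM), and part of it was spun down and resuspended in glucose-rich YPD. The groups are the SPM culture at 5.5 h and the YPD culture at 0, 20 and 40 min, where 0 min means harvested directly after the transfer. The reference on every array was one RNA of wild-type SK1 diploids (NKY1551) growing in acetate medium (YPA), so the reference differs from the samples in strain, medium and starvation. Each group had 1 array, and no SPM culture was followed past 5.5 h, so that medium, handling at transfer and elapsed time cannot be told apart. Each value below is the log2 ratio of sample (Cy5) over reference (Cy3), averaged over 2 adjacent spots of a gene, with the SD of those 2 spots. A change is the difference of 2 such ratios. A member was counted as higher or lower when its mean and both of its spots passed 2-fold. With no replicate arrays there was no test and no p-value, and the SD leaves out differences between slides, labellings and cultures.

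Duplicate spots of the members correlated at 0.959 to 0.974 within an array, against 0.975 to 0.982 over all genes, and no member spot carried a flag. All 6 sporulation markers (NDT80, SPS4, SSP2, SPR1, GAS4 and SMK1) were above background in the sample on all 4 arrays, with NDT80 at 6.79, 7.39, 6.88 and 5.62. The early meiotic genes DMC1, HOP1 and MEK1 were above background at 5.5 h and 0 min and not at 20 and 40 min. IME1 was above it throughout but fell as well, with ratios of -0.41, -2.77, -5.14 and -4.54. Of 6 markers of haploid cells, STE2, MFA1 and MFA2 were above background on none of the arrays, MF(ALPHA)1 and STE18 on all, and STE3 at 5.5 h and 0 min. Background here is the 95th percentile of the buffer-only spots of a channel.

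The assembly factors were dim in the sporulating sample. Only 14 of the 53 were above background in the sample channel at 5.5 h, against 40 at 0 min and 47 at both 20 and 40 min, while the share of all genes above it stayed between 51.9% and 55.8%. In the reference channel 39 to 44 of the 53 members were above it, where 69.6% to 75.5% of all genes were. At 5.5 h the sample channel had 54.4% of all genes above it and the reference channel 75.5%. The buffer spots set a strict limit: against the 95th percentile of the Arabidopsis control spots, 53, 53, 52 and 53 members were above background in the sample on the 4 arrays. Where 1 side of a comparison lay below the buffer limit, a fold is given as a lower bound ("at least"), computed per channel, so that for 1 or 2 members per time the bound exceeds the measured ratio. Only 10 members were above the limit in both channels on every array, namely DBP2, NOP4, RPF1, SSF2, LOC1, NIP7, NOG1, TIF6, RIX1 and REI1. Because each array is centred on its median gene, levels are relative to those of the other genes. Each RNA came from a whole culture, so less RNA of a kind per cell and fewer cells that hold it cannot be told apart.

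**Figure D1:**
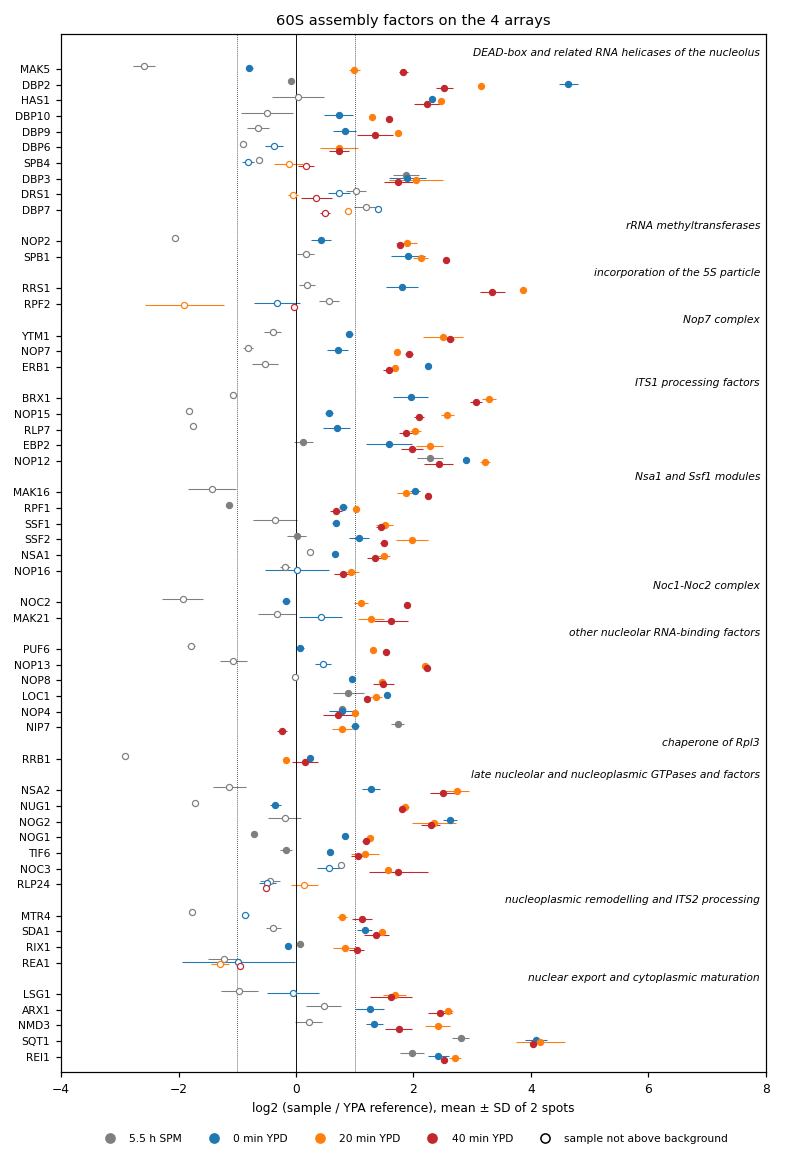
Log2 ratio of sample over YPA reference (x axis) of the 53 members, grouped by role and ordered within a role by the change at 40 min, on the 4 arrays (colours), as the mean and SD of 2 spots. Open symbols mark a sample channel not above background, which holds for 39 of 53 members at 5.5 h, and dotted lines mark 2-fold. For 42 members the grey point of 5.5 h is the lowest of the 4, which was not counted over all genes.

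At 5.5 h in SPM the factors lay on both sides of the growing reference. Their median measured log2 ratio was -0.36 (0.01 over all genes). In all, 13 of 53 (24.5%) were at least 2-fold lower than the reference, where 18.1% of all genes were, and 6 (11.3%) were at least 2-fold higher, where 21.7% of all genes were. With genes below background placed at their bounds, 3 of 45 members were 2-fold lower, where 15.5% of all genes were. The members' median was then 0.00, as it was over all genes. A bound that would have the opposite sign is set to 0, and 32 members had 1 dim side. A median of 0.00 can therefore come from this cut and gives no comparison. RRB1, which encodes the chaperone of ribosomal protein Rpl3, was lowest at -2.92 ± 0.00, or at least 5.44-fold lower. The helicase gene MAK5 followed at -2.58 ± 0.18, or at least 4.34-fold lower. Among the 13 were also the rRNA methyltransferase gene NOP2, the genes RLP7, NOP15 and BRX1 of ITS1 processing, NOC2, PUF6, the GTPase gene NUG1 and MTR4, the gene of the helicase that feeds the nuclear exosome. RPF1, at -1.14 ± 0.02, was the only 1 of the 13 with both channels above background. The 60S ribosomal protein genes stood far lower, with a median of -2.59 and 62 of 72 at least 2-fold lower.

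Of the 6 factors already above the reference in SPM, SQT1, which encodes the chaperone of ribosomal protein Rpl10, had the highest measured ratio at 2.81 ± 0.14, at least 3.63-fold above a reference below background. NOP12, an RNA-binding protein gene, followed at 2.28 ± 0.22, then REI1 of the cytoplasmic recycling step at 1.97 ± 0.21, the helicase gene DBP3 at 1.87 ± 0.22 and NIP7 at 1.73 ± 0.11. The sixth, DBP7, had neither channel above background. Of these 6, only SQT1 was at least 2-fold higher again after transfer.

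Most of the factors were higher directly after the transfer. Against 5.5 h, 28 of 53 (52.8%) had risen at least 2-fold at 0 min and 0 had fallen, where 7.58% of all genes were higher and 4.12% lower (8.71% and 2.67% with arrays centred on their median in place of loess). The median change was 1.23 (-0.16 over all genes). At 20 min 39 members (73.6%) were higher and 1 was lower, where 11.5% of all genes were higher and 15.8% lower, with a median of 1.99 (-0.26 over all genes). At 40 min 37 (69.8%) were higher and 1 lower, where 13.9% of all genes were higher and 19.8% lower, with a median of 1.92 (-0.22 over all genes). All 28 that were higher at 0 min were higher at the later times too. Another 11 joined at 20 min, 6 of them early factors and 5 late or export factors, and 14 were 2-fold higher at no time.

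For most members the starting level was below background, so that their rises are bounds. With members at their bounds and those dim on both arrays left out, 14 of 40 members passed 2-fold upwards at 0 min, where 8.30% of all genes did, 29 of 47 at 20 min, where 12.5% did, and 29 of 47 at 40 min, where 15.3% did. The members' median changes became 0.72, 1.35 and 1.24. Among the 14 members above background on both arrays, 6 were higher at 0 min, against 175 of 2936 genes measured in the same way. At 20 and 40 min 7 of the 14 were higher, against 232 of 2728 and 304 of 2507 genes.

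**Figure D2:**
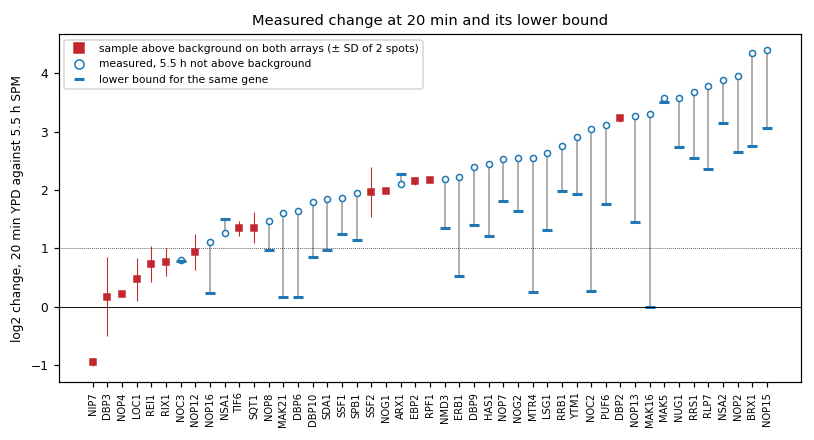
Log2 change of the sample-over-reference ratio at 20 min in YPD against 5.5 h in SPM (y axis) for the 47 members above background on at least 1 of the 2 arrays. Squares with SD of 2 spots are the 14 members above background on both, and open circles with bars below or near them are the 33 with a measured change and its bound. NIP7 is the only member below 0.

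The first step was followed by a second, smaller one, and then by little. Between 0 and 20 min 16 members rose at least 2-fold and 2 fell, where 6.2% of all genes were higher and 7.5% lower, and the median change was 0.69 (-0.12 over all genes). Between 20 and 40 min the median change was -0.10 (-0.02 over all genes). Only RPF2, dim in the sample on both arrays, was called in that step, as higher, where 4.05% of all genes were higher and 1.58% lower. Of the 3 YPD arrays, 8 members were highest on the first, 27 on the second and 18 on the last, and 12 had a higher value on each successive array. The same counts were not made over all genes, so they show no trait particular to the members.

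At 40 min the factors stood above the growing reference. Their median ratio was 1.62 (-0.00 over all genes), and 39 of 53 (73.6%) were at least 2-fold higher and 0 lower, where 19.7% of all genes were higher and 17.7% lower. Here 37 members were above background in both channels, and with bounds the count was again 39. Of the 13 that had been 2-fold below the reference in SPM, 10 were now 2-fold above it (not counted over all genes). The exceptions were RRB1, RPF1 and REA1.

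The 10 genes of the nucleolar RNA helicases, which unwind or rearrange pre-rRNA, took several courses. DBP2 encodes a DEAD-box helicase that also acts on messenger RNA, and it was at -0.08, 4.63, 3.15 and 2.53 on the arrays of 5.5 h, 0, 20 and 40 min. Its sample intensity was above background on all 4, and the change at 0 min of 4.71 ± 0.11 was the largest of any member at any time. DBP2 then fell by 1.48 ± 0.18 from 0 to 20 min, and it was the only member above background that fell 2-fold in that step. MAK5 took the opposite course, at -2.58, -0.79, 0.99 and 1.83. It was higher on each successive array, and its bound over SPM was 11.3-fold at 20 min and 15.9-fold at 40 min. HAS1, whose product serves both subunits, was at 0.03, 2.31, 2.47 and 2.24 over a reference below background, a single step and then a plateau. DBP9, DBP10 and DBP6 were below background at 5.5 h, and their bounds at 40 min were 2.36-fold, 1.88-fold and 1.55-fold, for measured changes of 1.99 ± 0.12, 2.08 ± 0.49 and 1.63 ± 0.21. The 4 others, DBP3, DBP7, DRS1 and SPB4, were 2-fold higher at no time. DBP7, with the most negative change of the group at 40 min (-0.70 ± 0.29), was at 1.20, 1.40, 0.89 and 0.49, with both channels below background on every array. DBP3 was high throughout at 1.87, 1.89, 2.04 and 1.74, a course without a step of 2-fold. Its 20 min value was the least sure, because the change in the sample channel alone was -1.48 while the ratio changed by 0.17 ± 0.68.

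Both rRNA methyltransferases were higher at all 3 times. NOP2, whose product modifies cytosines of the large rRNA, was at -2.07, 0.42, 1.88 and 1.78, and at least 6.29-fold above SPM at 20 min. SPB1, whose product methylates a ribose near the peptidyl transferase centre, was at 0.17, 1.91, 2.12 and 2.56 over a reference below background, and at least 2.67-fold above SPM at 40 min. For both genes all 3 YPD values lay above the SPM value by more than the spot spread.

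RPF2 and RRS1 encode partners that bring the 5S rRNA particle to the pre-ribosome, yet their spots ran apart. RRS1 was at 0.19, 1.81, 3.87 and 3.34, at least 5.83-fold above SPM at 20 min, over a reference below background on every array. RPF2 was at 0.56, -0.32, -1.90 and -0.04, and its sample channel was below background on all 4 arrays. The call of RPF2 as 2-fold lower at 20 min, at -2.46 ± 0.84, comes with a wide spot spread, where the median over the members was 0.16. The sample channel of RPF2 alone changed by -0.10. No fold is given for it.

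The Nop7 complex, which is needed for trimming of the ITS1 spacer, was higher in all 3 of its genes. NOP7 was at -0.81, 0.71, 1.72 and 1.93. ERB1 was at -0.54, 2.25, 1.68 and 1.59. YTM1 was at -0.40, 0.91, 2.50 and 2.62. All 3 were at least 2-fold higher at all 3 times by measured value. From 0 to 20 min ERB1 changed by -0.57 ± 0.02, NOP7 by 1.01 ± 0.14 and YTM1 by 1.59 ± 0.29. At their bounds NOP7 and YTM1 were at least 3.57-fold and 4.45-fold above SPM at 40 min, and the bounds of ERB1 were 2.23-fold at 0 min and 1.85-fold at the end.

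Of the 5 genes grouped with ITS1 processing 4 were higher at all 3 times. NOP15 was at -1.82, 0.56, 2.57 and 2.09, with a change of 4.39 ± 0.05 at 20 min and a bound of 8.35-fold. BRX1 was at -1.06, 1.95, 3.28 and 3.06, with a change of 4.34 ± 0.12 and a bound of 6.77-fold. RLP7, related in sequence to a ribosomal protein, changed by 3.78 ± 0.13 at the same time, with a bound of 5.10-fold. EBP2, with the sample above background throughout, was at 0.12, 1.58, 2.28 and 1.98, higher at all 3 times. NOP12, at 2.28, 2.90, 3.22 and 2.43, changed little from its high start, and its change at 40 min was 0.15 ± 0.03.

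The Nsa1 and Ssf1 modules, which bind the first domains of the large rRNA, were all higher at 20 min by measured value, and 4 of the 6 were at their bounds or with both arrays above background. MAK16 was at -1.43, 2.03, 1.86 and 2.25, with bounds of 2.03-fold at 0 min and 2.11-fold at 40 min. At 20 min its bound was 1.00-fold, so that no rise over SPM can be given for that array. RPF1 was above background in both channels on every array, at -1.14, 0.80, 1.02 and 0.68, and changed by 1.94 ± 0.05, 2.17 ± 0.03 and 1.82 ± 0.12. On the 20 min array the mean of RPF1 passed 2-fold over the reference and 1 of its 2 spots did not. NOP16 had the smallest change of the modules at 40 min, at -0.19, 0.02, 0.93 and 0.80. NSA1 and NOP16 were the 2 members higher at 20 min but not at 40 min, with changes of 1.10 ± 0.19 and 0.99 ± 0.24 at 40 min.

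SSF1 and SSF2 are near-identical paralogues, so that the PCR products of the array cannot fully separate their RNAs. SSF1 was at -0.36, 0.67, 1.51 and 1.45. SSF2 was at 0.01, 1.07, 1.98 and 1.49. Their changes at 20 min, 1.86 ± 0.53 and 1.96 ± 0.43, differed by less than the spot spread. Without both, the median change of the members at 20 min was 2.11, against 1.99 with them.

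The Noc1-Noc2 complex accompanies early particles within the nucleolus. NOC2 was at -1.93, -0.16, 1.11 and 1.88, higher on each successive array, with a change of 3.81 ± 0.37 at 40 min and a bound of only 1.41-fold, and the sample channel alone changed by 1.82. MAK21, which encodes Noc1, was at -0.32, 0.42, 1.28 and 1.62, with a change of 1.94 ± 0.04 at 40 min and a bound of 1.20-fold. Both reached the highest of their 4 values at 40 min.

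Of the 6 other nucleolar RNA-binding factors, 3 were higher at 20 min and 40 min and 1 was lower at 40 min. PUF6, also known for control of a localised mRNA, was at -1.79, 0.07, 1.32 and 1.53, at least 3.45-fold above SPM at 40 min. NOP13 was at -1.07, 0.46, 2.20 and 2.23, with a bound of 3.15-fold at 40 min. LOC1 and NOP4, both above background everywhere, changed by 0.33 ± 0.24 and -0.07 ± 0.20 at 40 min. NIP7 was the exception, at 1.73, 1.00, 0.78 and -0.24, lower on each successive array. Its change was -0.73 ± 0.04, -0.95 ± 0.07 and -1.97 ± 0.03, with both channels above background on all arrays. In the sample channel alone NIP7 changed by -0.91 at 40 min, short of 2-fold. Its neighbours in gene order, PUS1 and SRP72, changed by 0.22 ± 0.04 and -0.06 ± 0.05 at that time. NOP8, whose product binds Nip7, changed in the other direction by measured value, by 1.47 ± 0.04 at 20 min. The sample of NOP8 was below background at 5.5 h. At their bounds, 2 of the 3 factors of this group that were higher at 20 min stayed so.

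RRB1 started lowest and was restored in 1 step. Its ratio was -2.92, 0.23, -0.17 and 0.15, so that all 3 YPD values lay within 2-fold of the reference. The change at 0 min was 3.15 ± 0.00, at least 4.76-fold, and at 40 min 3.07 ± 0.22, at least 5.10-fold. At 40 min 39 other members were at least 2-fold above the reference.

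**Figure D3:**
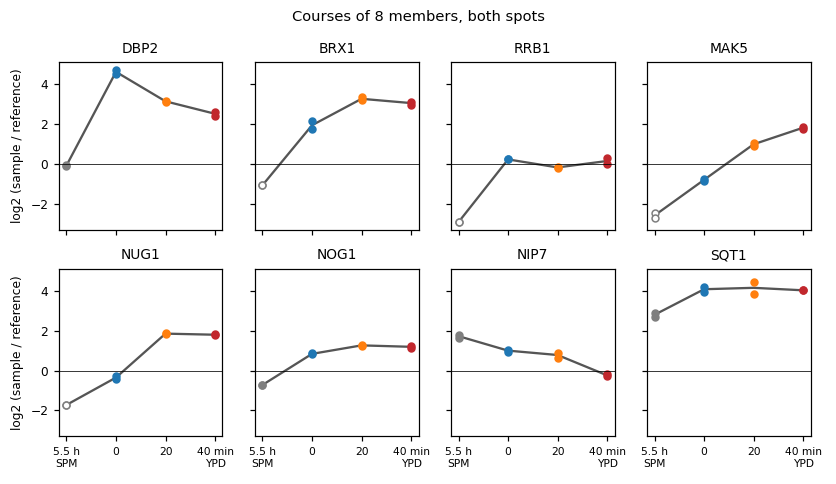
Log2 ratio of sample over YPA reference (y axis) of 8 members on the 4 arrays (x axis). Each point is 1 spot, open where the sample was not above background, and the line joins the means. DBP2 peaks at 0 min at 4.63, RRB1 returns from -2.92 to near 0, MAK5 goes from -2.58 to 1.83, and NIP7 from 1.73 to -0.24.

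Among the 7 late nucleolar and nucleoplasmic GTPases and factors, 4 were higher at 0 min and 5 at 20 and 40 min. NSA2 was at -1.14, 1.28, 2.75 and 2.50, at least 8.84-fold above SPM at 20 min. NUG1, a GTPase gene, was at -1.72, -0.35, 1.86 and 1.80, and its largest step of 2.21 ± 0.15 fell between 0 and 20 min, the largest of any member in that interval. NOG1, the gene of a GTPase that joins before the nucleolar exit, was measured above background throughout, at -0.72, 0.84, 1.27 and 1.20. The GTPase gene NOG2 reached 2.62 at 0 min and stayed near it, at least 3.25-fold above SPM at that time. TIF6, whose product keeps the subunits from joining too soon, moved less, by 0.76 ± 0.06, 1.34 ± 0.13 and 1.23 ± 0.01. RLP24, whose product holds the place of a ribosomal protein until the cytoplasm, was at -0.45, -0.49, 0.14 and -0.51 with a sample below background on all arrays. NOC3 did not reach 2-fold in both spots, at 0.98 ± 0.47 at 40 min.

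Of the 4 nucleoplasmic remodelling and ITS2 genes 2 were higher at 20 and 40 min by measured value. MTR4 was at -1.76, -0.87, 0.78 and 1.12, with the sample below background at 5.5 h and 0 min. Its bound over SPM was 1.19-fold at 20 min and 2.11-fold at 40 min, for measured changes of 2.55 ± 0.13 and 2.89 ± 0.21. SDA1 was at -0.38, 1.17, 1.47 and 1.37, higher at all 3 times by measured value, with bounds of 1.70-fold, 1.96-fold and 1.69-fold. REA1, the gene of the AAA ATPase, was at -1.22, -0.98, -1.29 and -0.96, with the sample below background throughout and the reference above it. RIX1, part of the complex that works with Rea1, was above background everywhere and changed by -0.20 ± 0.05, 0.77 ± 0.24 and 0.97 ± 0.16.

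Of the 5 export and cytoplasmic factors 1 was higher at 0 min and 4 at 20 and 40 min. LSG1, the gene of a cytoplasmic GTPase, was at -0.96, -0.05, 1.68 and 1.62, at least 2.76-fold above SPM at 40 min. ARX1, an export factor gene, was at 0.48, 1.26, 2.58 and 2.45. NMD3, the gene of the main export adaptor, was at 0.22, 1.33, 2.41 and 1.75 over a reference below background. These 3 genes first passed 2-fold in both spots at 20 min, and each rose at least 2-fold between 0 and 20 min. SQT1 was at 2.81, 4.09, 4.16 and 4.04, higher by 1.28 ± 0.33 at 0 min and level after that. REI1, whose product recycles Arx1, was at 1.97, 2.42, 2.71 and 2.52, and its change at 40 min of 0.55 ± 0.23 was the smallest of the 5. At 40 min all 5 were at least 2-fold above the reference, with a median of 2.45.

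Set against each other, the early factors had the larger median change at 0 min by measured value. Of the early factors 22 of 37 (59.5%) were higher at 0 min, with a median change of 1.46, against 6 of 16 (37.5%) with a median of 0.90. At 20 min the counts were 28 of 37 (75.7%) and 11 of 16 (68.8%), with medians of 2.15 and 1.92, and at 40 min 26 (70.3%) and 11 (68.8%), with medians of 1.99 and 1.64. The difference of the medians was thus 0.56, 0.23 and 0.35, and -0.07 for the ratio at 5.5 h. The classes overlapped widely, with quartiles of 0.53 to 1.94 and 0.40 to 1.42 at 0 min, and the difference was not tested. At their bounds the order turned at 0 min, with medians of 0.64 and 0.84. Moving NOG1, RLP24, TIF6 and NOC3, which join early and leave late, into the early class brought the difference to 0.30, -0.19 and 0.051. Of the 3 YPD arrays the highest value fell at 0, 20 and 40 min for 7, 16 and 14 early factors and for 1, 11 and 4 late and export factors.

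Other genes of ribosome assembly followed a like course, given here as values and not as a test. Of 34 other 60S assembly genes 10, 20 and 17 were higher at 0, 20 and 40 min, with medians of 0.86, 1.62 and 1.31. Of 59 genes of 40S processing 26, 41 and 39 were higher and 1, 1 and 2 lower, with medians of 1.03, 1.89 and 1.72. By measured value the median of the 53 factors lay above both at each time, but at the bounds it was 0.72 at 0 min, below the 0.81 of the other 60S genes. Among genes above background on both arrays it was 0.71, 1.14 and 1.10, against 0.89, 0.68 and 0.60 for the other 60S genes and 0.71, 1.34 and 1.23 for 40S processing. Of the 72 genes of 60S ribosomal proteins 62, 65 and 65 were higher, with medians of 2.33, 3.79 and 4.29, larger at each time than that of the assembly factors. From 20 to 40 min the ribosomal protein genes moved by a median of 0.45, the assembly factors by -0.10. At 40 min the medians against the reference were 1.62 for the 53 factors, 1.60 for the other 60S genes, 1.89 for 40S processing and 1.83 for the ribosomal proteins.

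**Figure D4:**
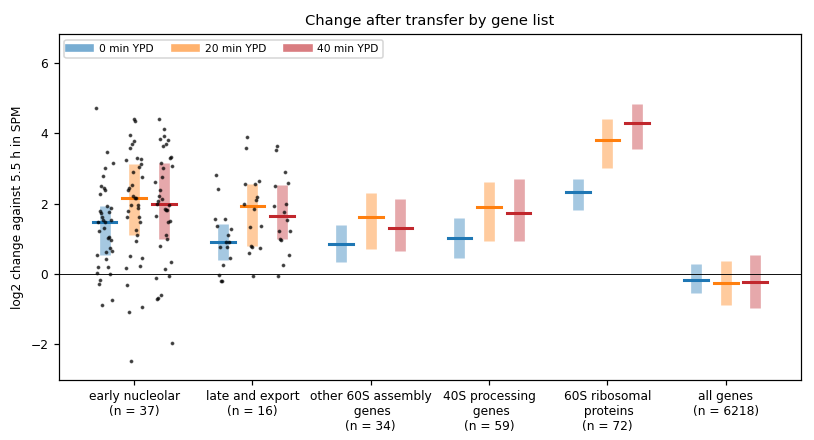
Log2 change against 5.5 h in SPM (y axis) at 0, 20 and 40 min in YPD (colours) for the early factors, the late and export factors, 3 comparison lists and all genes. Bars span the lower to the upper quartile of the genes, thick lines are medians and dots are single members. Medians of the early factors are 1.46, 2.15 and 1.99, and those of all genes lie below 0.

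In gene order 3 members lie beside a gene of 40S processing, and UTP9 and RIX1 moved least alike. UTP9 and RIX1, which lie in tandem, changed by 2.65 ± 0.52 and -0.20 ± 0.05 at 0 min and by 3.22 ± 0.37 and 0.97 ± 0.16 at 40 min. SSF1 and its divergent neighbour RRP3 changed by 1.80 ± 0.46 and 0.84 ± 0.35 at 40 min. NMD3 and the tandem DBP8 changed by 1.53 ± 0.46 and 1.12 ± 0.67 at that time, a difference within the spot spread.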

How the data were processed

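Samples were grouped by the labels, with 1 array in each of 4 groups. The authors hybridised arrays of PCR products of yeast ORFs, scanned both dyes and quantified them with QuantArray. The deposited scanner files hold linear spot and local background intensity per channel, not normalized, and the deposited value table holds the authors' log2 ratios (background subtracted, floored at the buffer spots, median-centred, low-quality spots removed). The dye fields give Cy5 as the sample, although the text of the protocol reverses them. The authors' steps repeated here matched their table at r = 0.994 to 0.998 across 5506 to 5510 genes, with the same sign, so the table's direction and its centring (column medians of 0) are known. No dye swap was made.

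Intensities were corrected with normexp (offset 50) and global loess in limma 3.58.1 (R 4.3.3), with buffer and Arabidopsis spots at weight 0, and each array was centred on the median gene spot. On the 0 min array 17 spots flagged in the file were left out. A call needs the mean and both spots past 2-fold. Bounds compare normalized intensities per channel (after Aquantile) with the dimmest spot above background, and those between Cy5 and Cy3 are open to dye bias. Bounds that would have the opposite sign are set to 0. The counting step was tested on simulated data in which only genes of the brighter part of the reference were given a change. That test does not cover genes that were dim at the start. No test was run, because the arrays have no replicates, and the number of arrays limits the precision. Strands are not told apart by double-stranded probes.

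Members, lists and roles were chosen with earlier results of these data known. Named with values on every array were, in each role, the 2 largest and the smallest change at 40 min, all of roles with up to 3 genes, members that were lower after transfer, and SSF1 and SSF2. Further members were named after their values were seen. Symbols and gene order come from the RefSeq annotation of assembly R64, and no coordinates are given, since no source used here names the array's build. Sequences were not used here. Alternatives are given in the closing section.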

Additional observations from a re-analysis of the deposited data

How the results depend on the processing

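The number of members at least 2-fold lower than the reference at 5.5 h (13) ranged from 1 to 15 over the alternatives, the number higher at 0 min (28) from 4 to 32, at 20 min (39) from 5 to 42, at 40 min (37) from 5 to 41, and the number above the reference at 40 min (39) from 5 to 41. The lowest counts came from keeping the 10 members with no dim channel on any array. Of these 10, 1 was lower at 5.5 h, 4, 5 and 5 were higher at 0, 20 and 40 min, and 5 were above the reference. Of all genes 1984 were kept in the same way, and 352 of them were lower at 5.5 h. Of the 1984, 159, 209 and 275 were higher at 0, 20 and 40 min, and 449 were above the reference at 40 min. Placing dim members at their bounds left 3 lower at 5.5 h, of 45 members, and 14 higher at 0 min, of 40. The median at 5.5 h was -0.36 and turned to 0.037 among the 10.

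The difference between the early and the late and export medians was less stable. At 0 min (0.56) it was -0.20 at the bounds, 0.26 among the 10, 0.20 from spot 2 alone, 0.33 for members above background on at least 1 side and 0.30 with NOG1, RLP24, TIF6 and NOC3 classed as early. At 20 min (0.23) it was 0.059 at the bounds, -0.19 with those 4 genes moved and 0.058 in the sample channel alone, an alternative chosen after seeing the data. At 40 min (0.35) it was -0.20 among the 10, 0.62 from spot 1 alone and 0.051 with the 4 genes moved. At 5.5 h (-0.07) it was 0.46 among the 10 and 0.10 from spot 2 alone. Among the 10, for members above background on at least 1 side and with other classes, the members in each class differ from the main ones. At the bounds the values differ as well. For the same 40 members at 0 min the difference was 0.33 by measured value and -0.20 at their bounds. For single spots and the sample channel alone the cause was not tested.

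Of the alternative values, 107 for counts and class differences and 55 for medians stayed within 1.5 times the count or within the spot spread. For counts and class differences 17 moved past that limit and 3 were reversed, and for medians 12 and 1. All values from print-tip loess, normexp with offset 10, and the authors' steps and table stayed within it. So did those with the Arabidopsis spots as background, also added after seeing the data. That setting kept all 53 members, so its values could not differ from the main ones. Likewise, calls without the need for both spots could not change a median or class difference. Median centring moved the members' median at 0 min from 1.23 to 1.43 and that against the reference at 40 min from 1.62 to 1.76, and moved no count past that limit. No paired analysis was possible because each group has 1 array and no test was run. Signal over background at 5.5 h limits the size of every rise for 39 of the 53 members.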
